A study of Mus musculus with 24 samples.

Results

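The comparison described here asks whether mutant PIK3CA changed gene expression differently in the luminal Sca1-positive and the luminal Sca1-negative cells of the mouse mammary gland. The mutant effect is the log2 level in mutant cells minus that in control cells of the same gate. The difference of effects is the mutant effect in Sca1-positive cells minus the mutant effect in Sca1-negative cells. It uses 12 of the 24 arrays of the series, 3 in each of 4 groups, and all 19937 genes with a probe set of a single symbol.

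Control mice carried Lgr5-creERT2, a tamoxifen-inducible Cre recombinase driven by the Lgr5 locus. Mutant mice carried Lgr5-creERT2 together with a PIK3CA transgene bearing the H1047R substitution. Both were of mixed FVB and C57BL6 background, and both were given tamoxifen 4 weeks before sorting, so Cre and tamoxifen are common to all groups. Each genotype was pooled from 2 to 3 mice synchronised in estrus, in 3 independent sortings, and RNA of 250 sorted cells per sample was amplified before it was read on an Affymetrix array. Luminal cells were CD45-negative and CD24-high, and either Sca1-negative or Sca1-positive. The labels do not say whether both gates of a replicate number came from the same pool. The mutant luminal cells were sorted as GFP-positive and the control luminal cells as GFP-negative, so genotype and GFP state cannot be told apart. Only GFP-positive cells entered the mutant luminal groups, and the sample titles do not say what the GFP reports. The data are bulk, so a higher level from more cells of a type and a higher level per cell cannot be told apart.

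The mammary ducts have an outer layer of contractile basal cells and an inner layer of luminal cells. Luminal cells with surface Sca1 are mostly hormone-sensing cells, which carry oestrogen and progesterone receptors and do not make milk themselves. Luminal cells without Sca1 hold the progenitors of the alveolar cells that secrete milk proteins, and they express Kit and the transcription factor Elf5. The PIK3CA gene codes for p110-alpha, a catalytic subunit of phosphoinositide 3-kinase, and the H1047R substitution raises its lipid kinase activity. The kinase makes a membrane lipid that recruits AKT, which promotes growth and metabolism and holds FOXO transcription factors outside the nucleus.

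The sorted cells were first set against their markers. The luminal keratins Krt8 and Krt18 read between 12.38 and 12.80 on the log2 scale in all 12 arrays, and Ptprc, the gene of CD45, between 3.97 and 4.47, below 4.66, the median level of all genes, under which a gene is called dim here and the size of a difference is not exact. In control cells the hormone-sensing markers Esr1 (1.60), Prom1 (1.94) and Foxa1 (2.41) were higher in the Sca1-positive gate, and the progenitor markers Kit (-4.63), Aldh1a3 (-3.27) and Elf5 (-3.24) were lower there (limma, adjusted p of 7.6e-07 to 0.0229). Pgr, the progesterone receptor gene, was higher by 1.82 without passing the test (adjusted p = 0.0952). The gene of Sca1 itself, Ly6a, had no probe set of a single symbol and was not read. Lgr5 read between 4.24 and 5.25 in the luminal arrays, near the level of dim genes.

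A single array stood apart before any result is read. In the mutant Sca1-positive group, replicate 1 read 7.98 for the basal keratin Krt5 where the other two arrays read 5.18 and 6.28. It also read 8.58 for Elf5 (5.96 and 4.67 in the others), 8.04 for the contractile actin Acta2 (4.79 and 5.36) and 6.29 for Kit (4.79 and 4.68). For these genes the array lay nearer to the mutant Sca1-negative arrays than its group did. On the first principal component of the 12 arrays, which held 35.4% of the variance, it stood at 3.00. The other mutant Sca1-positive arrays stood at 19.0 and 25.9, control Sca1-positive arrays at 39.0 to 45.1, and mutant Sca1-negative arrays at -44.9 to -35.2. The part of this array's makeup in each result was not tested, and results are therefore given with and without it where they move.

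**Figure D1:**
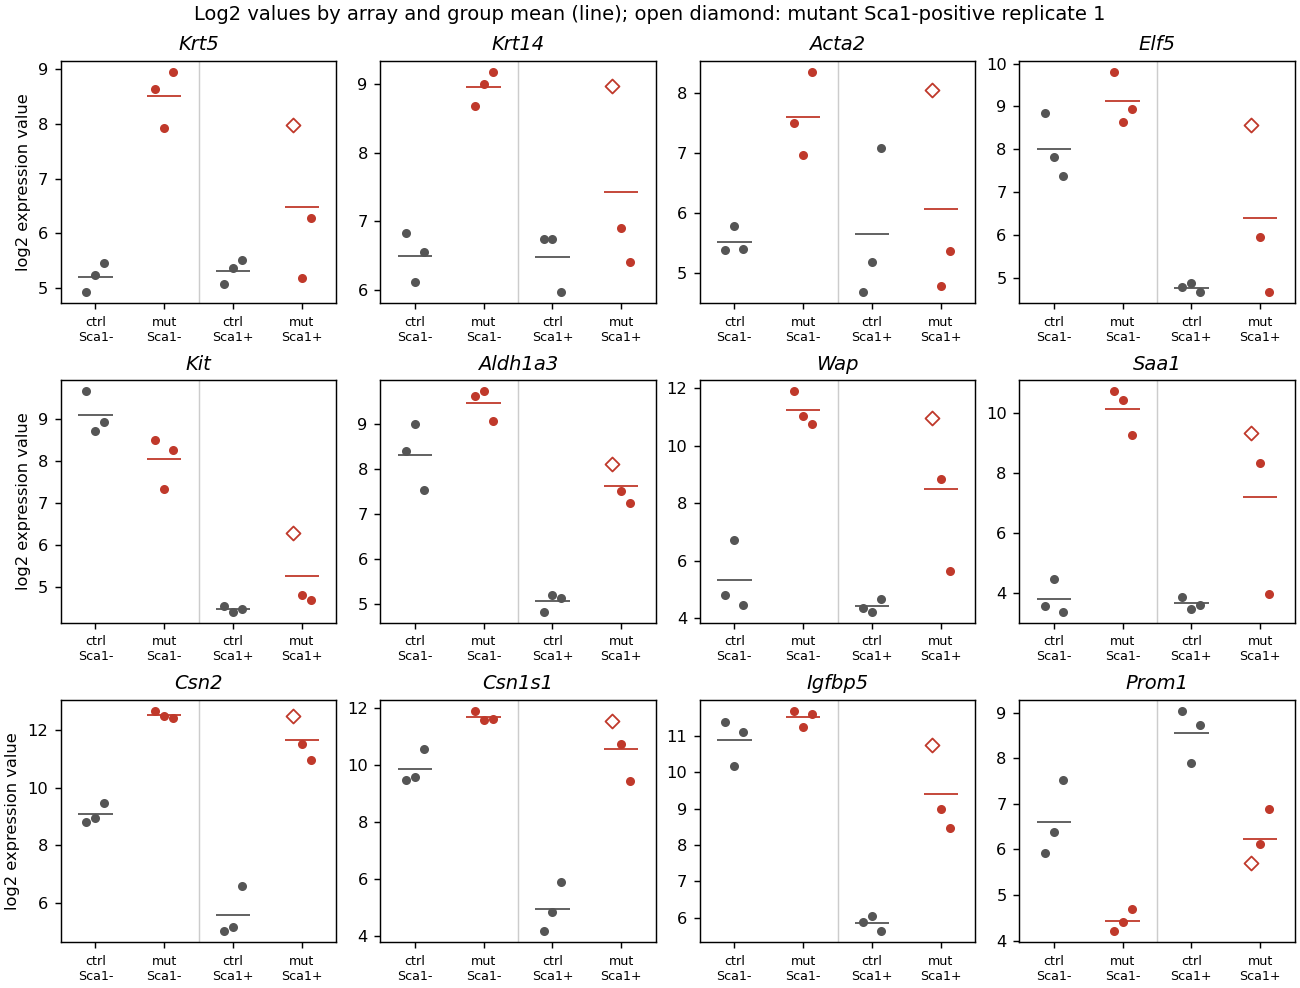
Log2 expression value (vertical axis) of 12 lineage, milk and secreted-protein genes in each of the 12 luminal arrays, by genotype (ctrl, mut) and gate (Sca1-, Sca1+); points are arrays and lines are means of 3 arrays. The open diamond is mutant Sca1-positive replicate 1, which is the highest of its group in 11 of the 12 genes and the lowest for Prom1.

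The mouse Pik3ca probe set was read next, as a check of the genotype labels. The labels do not say whether it also reads the transgene. In Sca1-positive cells the control arrays read 7.38, 6.88 and 7.23 and the mutant arrays 7.62, 7.76 and 7.79. In Sca1-negative cells the control arrays read 7.18, 7.02 and 6.80 and the mutant arrays 7.83, 8.02 and 7.86. In both gates all mutant arrays lay above all control arrays, as was so in either direction for 15.7% of genes in Sca1-positive and 18.1% in Sca1-negative cells. The effects of 0.56 (adjusted p = 0.424) and 0.90 (adjusted p = 0.0593) did not pass the test. Their difference was -0.35, with a 95% interval of -0.98 to 0.29 (adjusted p = 0.86).

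Across all genes, 32 of 19937 (0.161%) had a difference of effects that passed the test, which was limma with a Benjamini-Hochberg adjusted p under 0.05. Of these, 16 (0.0803%) were higher and 16 (0.0803%) lower in Sca1-positive than in Sca1-negative cells, and 30 differed by at least 2-fold. At an unadjusted p under 0.05 there were 1422 genes (7.13%). The mutant effect itself passed for 155 genes (0.777%) in Sca1-positive cells, 80 higher (0.401%) and 75 lower (0.376%), and for 1542 (7.73%) at an unadjusted p under 0.05. The count of 155 was 103 without control Sca1-positive replicate 3. The effect passed for 145 genes (0.727%) in Sca1-negative cells, 111 higher (0.557%) and 34 lower (0.171%), and for 2213 (11.1%) at an unadjusted p under 0.05. In a fit of only the 4 luminal groups, 5 genes passed in the difference of effects, 3 of them among the 32: the matrix protein gene Thbs1, the lipocalin gene Apod and the kinase gene Prkaa2. Without mutant Sca1-positive replicate 1 the count was 60 (29 higher, 31 lower), and 31 of the 32 genes passed there too. In the 12 fits that left out 1 luminal array each, 18 of the 32 genes passed every time and the other 14 in 2 to 8 fits.

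The 32 genes fall into 4 patterns by which gate held the larger effect and in which direction. In 13 genes the mutant level was higher and the effect larger in Sca1-positive cells, and in 8 it was lower and the effect larger there. In 8 genes the level was higher and the effect larger in Sca1-negative cells, and in 3 it was lower and larger there. In all 32 the effect in the gate with the larger effect passed the test by itself. Only in Apod, Wfdc12 and Nrxn3 did the effect in the other gate pass too, in the same direction, and in no gene did opposite effects both pass. The pattern of a gene follows from the values that called it and is a description.

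**Figure D2:**
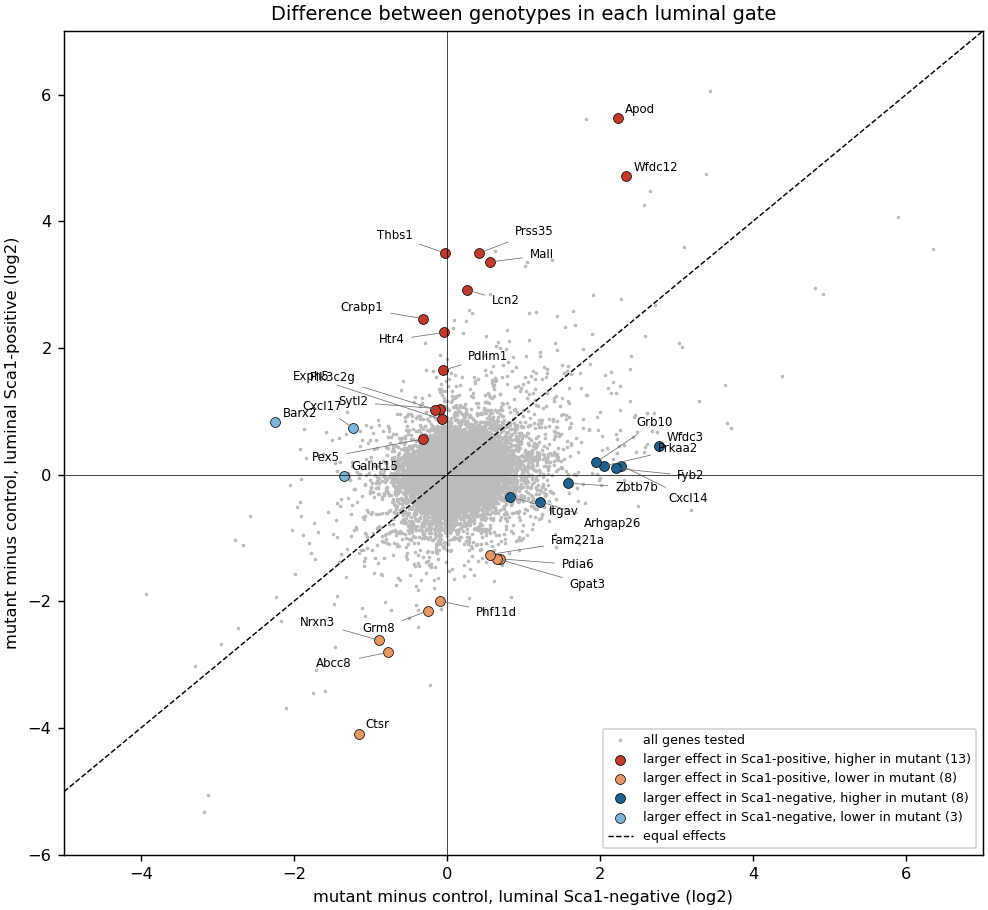
Mutant minus control (log2) in luminal Sca1-negative cells (horizontal axis) against the same in luminal Sca1-positive cells (vertical axis), each point a gene and each value from 3 arrays against 3; the dashed line marks equal effects. The 32 called genes are coloured by pattern: most red and orange points lie near the vertical axis and most blue points near the horizontal axis, so that 29 of the 32 passed the test in 1 gate.

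Secreted proteins and defence genes were among the genes higher mainly in mutant Sca1-positive cells. Thbs1, which encodes the secreted matrix protein thrombospondin 1, an inhibitor of vessel growth, read 5.54, 5.17 and 6.05 in control and 9.31, 8.96 and 8.99 in mutant Sca1-positive arrays. In Sca1-negative cells it read 10.76, 10.63 and 10.45 in control and 10.76, 10.40 and 10.60 in mutant arrays. The gene was thus high in the Sca1-negative gate of both genotypes and low only in control Sca1-positive cells, and the mutant Sca1-positive arrays stayed below every Sca1-negative array. Its effects were 3.50 (standard error 0.21, an 11.3-fold difference) and -0.03, and their difference was 3.53 (standard error 0.29, adjusted p = 1.11e-05).

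Apod, which encodes the lipid-binding lipocalin apolipoprotein D, read 4.38, 4.38 and 4.70 in control and 10.46, 10.18 and 9.68 in mutant Sca1-positive arrays. The Sca1-negative arrays read 8.66, 9.17 and 9.47 in control and 11.27, 11.38 and 11.34 in mutant. Apod rose in both gates, 49.3-fold in Sca1-positive and 4.69-fold in Sca1-negative cells, and the difference of effects was 3.39 (standard error 0.48, adjusted p = 0.00281). The control Sca1-positive readings lay around the dim level of 4.66, so the size of this fold is not exact.

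Lcn2 encodes lipocalin 2, an antibacterial protein that binds iron-carrying siderophores. It read 8.71, 9.36 and 8.01 in control and 12.14, 11.76 and 10.93 in mutant Sca1-positive arrays, against 12.39 to 12.48 in control and 12.68 to 12.72 in mutant Sca1-negative arrays. Here too the mutant Sca1-positive arrays lay between the control arrays of their gate and the Sca1-negative arrays. The difference of effects was 2.66 (standard error 0.37, adjusted p = 0.00281), and 2.39 without mutant Sca1-positive replicate 1. The upper readings are close to the highest value of any array, 13.54, where a further rise is hard to read.

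Wfdc12, of the whey acidic protein family of small protease inhibitors with antibacterial activity, read 4.90, 4.01 and 4.29 in control and 9.90, 8.71 and 8.73 in mutant Sca1-positive arrays. Its Sca1-negative arrays read 4.04, 3.92 and 4.30 in control and 6.44, 6.26 and 6.60 in mutant. In contrast to Thbs1, Apod and Lcn2, its control levels were dim in both gates and its highest readings were all in mutant Sca1-positive cells. The difference of effects was 2.37 (standard error 0.38, adjusted p = 0.0103).

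Other genes of this pattern also had their highest readings in mutant Sca1-positive cells. Mall, which encodes a membrane-raft protein of the MAL family, read 5.76, 6.05 and 6.22 in control and 8.53, 9.51 and 10.06 in mutant Sca1-positive arrays, and 6.11 to 7.04 in the 6 Sca1-negative arrays (difference of effects 2.80, adjusted p = 0.00393). Htr4, a serotonin receptor gene, read 4.67 to 5.47 in control and 6.86, 7.34 and 7.39 in mutant Sca1-positive arrays, with no Sca1-negative array above 4.66 (difference 2.28, adjusted p = 0.000258). Crabp1, which encodes a carrier of retinoic acid within the cell, read at most 4.80 in the 9 arrays of the other groups and 6.54, 7.38 and 6.20 in mutant Sca1-positive arrays (difference 2.77, adjusted p = 0.000341). For these genes, unlike Thbs1, no Sca1-negative array reached the mutant Sca1-positive level.

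Prss35, which encodes a secreted protein of the serine protease family, read 6.35, 7.32 and 8.87 in mutant Sca1-positive arrays and 3.95 to 5.35 in the other 9. Its difference of effects was 3.08 (adjusted p = 0.0274), and it passed in 5 of the 12 fits that left out 1 array. Sytl2 and Exph5, a pair of genes whose products bind the secretory-granule GTPase Rab27, differed in the same direction, by 1.13 (adjusted p = 0.00393) and 0.94 (adjusted p = 0.0393). Sytl2 read 5.23 to 5.51 and Exph5 5.26 to 5.67 in mutant Sca1-positive arrays, above all other luminal arrays, where the highest readings were 4.63 and 4.79. Exph5 passed in 3 of the 12 fits.

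The remaining members of the pattern were Pik3c2g, Pex5 and Pdlim1. Pik3c2g, which encodes a class II phosphoinositide 3-kinase, a relative of the transgene product, read 4.95, 5.17 and 5.89 in mutant Sca1-positive arrays and 3.60 to 4.40 in the others (difference 1.18, adjusted p = 0.0309, 4 of 12 fits). Pex5, the receptor that brings enzymes into peroxisomes, had the smallest difference of the 32 genes, 0.88 (adjusted p = 0.0222, 8 of 12 fits). Pdlim1, which encodes an actin-associated PDZ-LIM protein, read 6.37, 7.33 and 7.07 in control and 8.38, 8.74 and 8.59 in mutant Sca1-positive arrays, a level that Sca1-negative cells of both genotypes already had (8.27 to 8.90). Its difference of 1.70 (adjusted p = 0.0393) passed in 3 of 12 fits. Pdlim1 and Fam221a, named further on, lie outside the rule for named genes and were chosen after their values were seen.

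As a description, since its arrays also entered the calls, the control gate difference separates these 13 genes. Thbs1 (-5.03), Apod (-4.62), Lcn2 (-3.75) and Pdlim1 (-1.63) were lower in Sca1-positive than in Sca1-negative control cells. This compares the luminal gates only. In control basal GFP-negative and GFP-positive cells Thbs1 had means of 10.94 and 10.30, and Lcn2 of 12.15 and 11.86. These were near the control Sca1-negative means of 10.61 and 12.44. Apod had basal means of 4.62 and 4.54, against 9.10 in control Sca1-negative cells. Beside these 4 genes, the 22 measured luminal progenitor and alveolar genes moved too: their summed log2 level was 152.6 to 158.2 in control and 167.6 to 188.6 in mutant Sca1-positive arrays, the highest in replicate 1, and 193.0 to 204.0 in Sca1-negative arrays. The part of this shift in the 4 genes was not tested. Without replicate 1 the differences of effects of Thbs1, Apod, Lcn2 and Pdlim1 were 3.41, 3.22, 2.39 and 1.79, and all 4 passed. For Mall, Htr4, Crabp1, Prss35, Wfdc12, Sytl2, Exph5, Pik3c2g and Pex5, no Sca1-negative array reached the lowest mutant Sca1-positive reading.

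Promoter sequence is shown for 2 of the antibacterial genes that rose in mutant Sca1-positive cells, Lcn2 and Wfdc12, and for the chemokine gene Cxcl14, which rose only in mutant Sca1-negative cells. Each is the 250 bases before the RefSeq transcription start in GRCm38.p6, on the minus strand, at chr2:32387740-32387989, chr2:164190559-164190808 and chr13:56296552-56296801. Capitals mark the C/EBP word TTGCNNAA, read on the printed strand in Lcn2 and on the opposite strand in Wfdc12, and the STAT word TTCNNNGAA in Cxcl14.

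Lcn2: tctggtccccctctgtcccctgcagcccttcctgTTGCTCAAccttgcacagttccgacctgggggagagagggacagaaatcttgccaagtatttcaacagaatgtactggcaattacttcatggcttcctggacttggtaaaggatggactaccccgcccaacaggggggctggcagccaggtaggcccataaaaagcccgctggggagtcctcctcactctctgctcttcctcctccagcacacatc
Wfdc12: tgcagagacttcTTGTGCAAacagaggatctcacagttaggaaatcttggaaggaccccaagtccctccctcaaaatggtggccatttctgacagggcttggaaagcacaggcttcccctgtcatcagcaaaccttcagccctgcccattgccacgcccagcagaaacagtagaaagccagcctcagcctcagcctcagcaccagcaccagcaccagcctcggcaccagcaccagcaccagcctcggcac
Cxcl14: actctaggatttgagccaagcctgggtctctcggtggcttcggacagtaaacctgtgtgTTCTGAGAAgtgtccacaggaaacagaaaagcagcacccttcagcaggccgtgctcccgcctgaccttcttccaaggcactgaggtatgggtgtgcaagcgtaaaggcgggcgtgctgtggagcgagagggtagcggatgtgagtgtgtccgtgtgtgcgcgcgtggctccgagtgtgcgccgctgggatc

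The C/EBP word starts 216 bases before the start of Lcn2 and 238 before that of Wfdc12, and the STAT word 191 bases before that of Cxcl14. Words were searched on both strands of the 250 bases before and 50 after each start. RefSeq entries were matched by symbol for 25 of the 32 genes, with 34 promoters. The C/EBP word was in 6 of these 34 (17.6%) and in 10.8% of all 32851 promoters of the table. Beside Lcn2 and Wfdc12, its carriers were Pdlim1 and Pik3c2g, higher in mutant Sca1-positive cells, and Ctsr and Nrxn3, lower there. The STAT word was in 2 (5.88%) against 8.3%, in Cxcl14 and in Pik3c2g. Neither word was thus confined to a single pattern. The FOXO word TGTTTAC and the palindromic oestrogen response element were in 0 of the 34, against 3.65% and 0.07%. A word is a match of letters, and no factor binding was measured.

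The 8 genes lower mainly in mutant Sca1-positive cells were, in control cells, genes of the Sca1-positive gate. All 8 were higher in Sca1-positive than in Sca1-negative control cells, and Pdia6 alone still differed between the gates in mutant cells. The same arrays entered the test that called these genes, so both statements are descriptions. Nrxn3, which encodes the synaptic adhesion protein neurexin 3, read 6.43, 6.59 and 7.33 in control and 4.19, 4.13 and 4.19 in mutant Sca1-positive arrays, and 4.82, 5.28 and 5.16 against 4.22, 4.23 and 4.14 in Sca1-negative arrays. It fell in both gates, to 0.163 and 0.54 of the control level, and the effects differed by -1.73 (standard error 0.23, adjusted p = 0.00178). All 6 mutant readings were dim, so the larger fall in Sca1-positive cells is a fall from a higher level to the same low level.

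Ctsr, of a rodent family of closely similar cathepsin proteases whose copies may share signal, read 7.90, 7.61 and 8.81 in control and 4.27, 3.67 and 4.10 in mutant Sca1-positive arrays (effect -4.09, difference of effects -2.94, adjusted p = 0.00178). In Sca1-negative arrays it read 4.22 to 5.40 in control and 3.78 to 3.86 in mutant. Grm8, a metabotropic glutamate receptor gene, read 6.74, 6.02 and 5.52 against 4.19, 3.88 and 3.75 in Sca1-positive arrays and stayed between 3.86 and 4.36 in Sca1-negative arrays (difference -1.90, adjusted p = 0.00301). Abcc8, which encodes the sulphonylurea receptor subunit of potassium channels, read 7.46 to 7.77 in control and 4.62 to 5.10 in mutant Sca1-positive arrays (difference -2.04, adjusted p = 0.0224, 7 of 12 fits). Nrxn3, Grm8 and Abcc8, all best known from nerve and endocrine cells, thus had their highest readings in the control Sca1-positive arrays.

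Pdia6, which encodes a disulphide isomerase that folds secreted proteins in the endoplasmic reticulum, was bright in every group. It read 9.74, 9.26 and 9.71 in control and 8.42, 7.78 and 8.52 in mutant Sca1-positive arrays. In Sca1-negative arrays it read 8.33, 8.49 and 8.71 in control and 8.90, 9.37 and 9.35 in mutant. The order of the genotypes was opposite in the gates with no overlap in either. Of all genes, 15.7% had no overlap in Sca1-positive and 18.1% in Sca1-negative cells. Only the lower level of Pdia6 in Sca1-positive cells passed (-1.33, adjusted p = 0.00214, against 0.70, adjusted p = 0.171). The difference was -2.02 (standard error 0.29, adjusted p = 0.00334).

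Gpat3, an enzyme that starts triglyceride synthesis, had effects of -1.33 and 0.66 (difference -1.99, adjusted p = 0.0364, 6 of 12 fits). Phf11d, of a family of closely similar PHD-finger genes, had effects of -2.00 and -0.09 (difference -1.90, adjusted p = 0.0393, 4 of 12 fits). Fam221a had effects of -1.26 and 0.56 (difference -1.82, adjusted p = 0.0428, 2 of 12 fits). In these 3 genes the control Sca1-positive arrays lay above the mutant ones without overlap, and 15.7% of all genes had no overlap in either direction there. The calls of these 3 genes were near the threshold and were lost on leaving out any of several arrays. Under all settings run, the difference lay between -2.23 and -1.65 for Gpat3 and between -2.26 and -1.61 for Phf11d. For Fam221a it lay between -1.94 and -1.58.

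In the 8 genes higher mainly in mutant Sca1-negative cells, the mutant effect in Sca1-positive cells was between -0.43 and 0.45. Prkaa2, which encodes the alpha2 catalytic subunit of the energy sensor AMPK, read 4.65, 4.46 and 4.31 in control and 6.27, 6.78 and 6.51 in mutant Sca1-negative arrays. The 6 Sca1-positive arrays read 4.15 to 4.49. Its effects were 2.05 in Sca1-negative cells, a 4.13-fold rise, and 0.13 in Sca1-positive cells (difference -1.91, standard error 0.20, adjusted p = 0.000185). The gene was at or below the dim level everywhere but in mutant Sca1-negative cells.

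Cxcl14, which encodes a secreted epithelial chemokine, read 5.30, 5.35 and 5.10 in control and 7.77, 7.21 and 7.62 in mutant Sca1-negative arrays, against 4.73 to 5.45 and 4.89 to 5.90 in Sca1-positive arrays (difference -2.14, adjusted p = 0.00281). It was far higher in control basal cells, with means of 11.81 in GFP-negative and 11.88 in GFP-positive cells. Basal keratin genes, given further on, rose in the same mutant Sca1-negative arrays, and a common source was not tested. Fyb2 and Wfdc3, which follow, had control basal means of 3.87 to 4.51. Fyb2, an adaptor protein gene, read 4.21 to 4.90 against 6.01, 7.26 and 6.76 in Sca1-negative arrays and 3.74 to 3.99 in all 6 Sca1-positive arrays (difference -2.11, adjusted p = 0.0029). Wfdc3, another gene of the whey acidic protein family, read 4.77 to 4.99 against 8.23, 7.47 and 7.17 in Sca1-negative arrays (difference -2.32, adjusted p = 0.00393). Its difference was -1.07 and did not pass when the probe sets of each gene were averaged. Wfdc3 and Wfdc12 are both coded in the cluster of this family on chromosome 2, and their differences of effects had opposite signs.

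Zbtb7b, which encodes a zinc-finger transcription factor, read 5.15, 4.98 and 5.28 against 6.34, 6.72 and 7.11 in Sca1-negative arrays and 5.99 to 6.12 against 5.48 to 6.37 in Sca1-positive arrays (difference -1.72, adjusted p = 0.014). Grb10, an adaptor that binds and restrains the insulin and IGF1 receptors upstream of phosphoinositide 3-kinase, read 4.76, 5.62 and 4.96 against 6.85, 7.36 and 6.99 in Sca1-negative arrays and 4.61 to 5.66 in the 6 Sca1-positive arrays. Its difference of -1.75 (adjusted p = 0.0425) passed in 3 of 12 fits. Itgav, the alpha-v integrin gene, differed by -1.17 (adjusted p = 0.0223, 8 of 12 fits) and Arhgap26, which encodes an inactivator of the GTPase RhoA, by -1.65 (adjusted p = 0.0274, 4 of 12 fits). In all 4 genes the mutant and control Sca1-negative arrays did not overlap, as was so in either direction for 18.1% of all genes. These arrays also entered the calls.

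Galnt15, Cxcl17 and Barx2 were lower in mutant Sca1-negative cells. Galnt15, which encodes an enzyme that starts O-linked glycan chains, read 5.73, 5.72 and 5.36 in control and 4.00, 4.41 and 4.36 in mutant Sca1-negative arrays, and 4.32 to 4.72 in Sca1-positive arrays of both genotypes (difference 1.33, adjusted p = 0.00208). Barx2, a homeobox gene, read 6.35, 6.21 and 8.13 against 4.53, 4.75 and 4.68 in Sca1-negative arrays and 4.18 to 5.73 in Sca1-positive arrays (difference 3.07, adjusted p = 0.0393, 4 of 12 fits). In both, mutant Sca1-negative cells were left near the dim level, where control Sca1-positive cells also lay. Cxcl17, a chemokine of mucosal surfaces, fell from 7.85 to 8.30 in control to 6.29 to 7.30 in mutant Sca1-negative arrays, while Sca1-positive arrays read 8.65 to 9.77 and 9.54 to 10.19 (difference 1.96, adjusted p = 0.0375). Cxcl17 passed in 4 of 12 fits and was the gene that did not pass without mutant Sca1-positive replicate 1 (1.80, adjusted p = 0.0685).

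**Figure D3:**
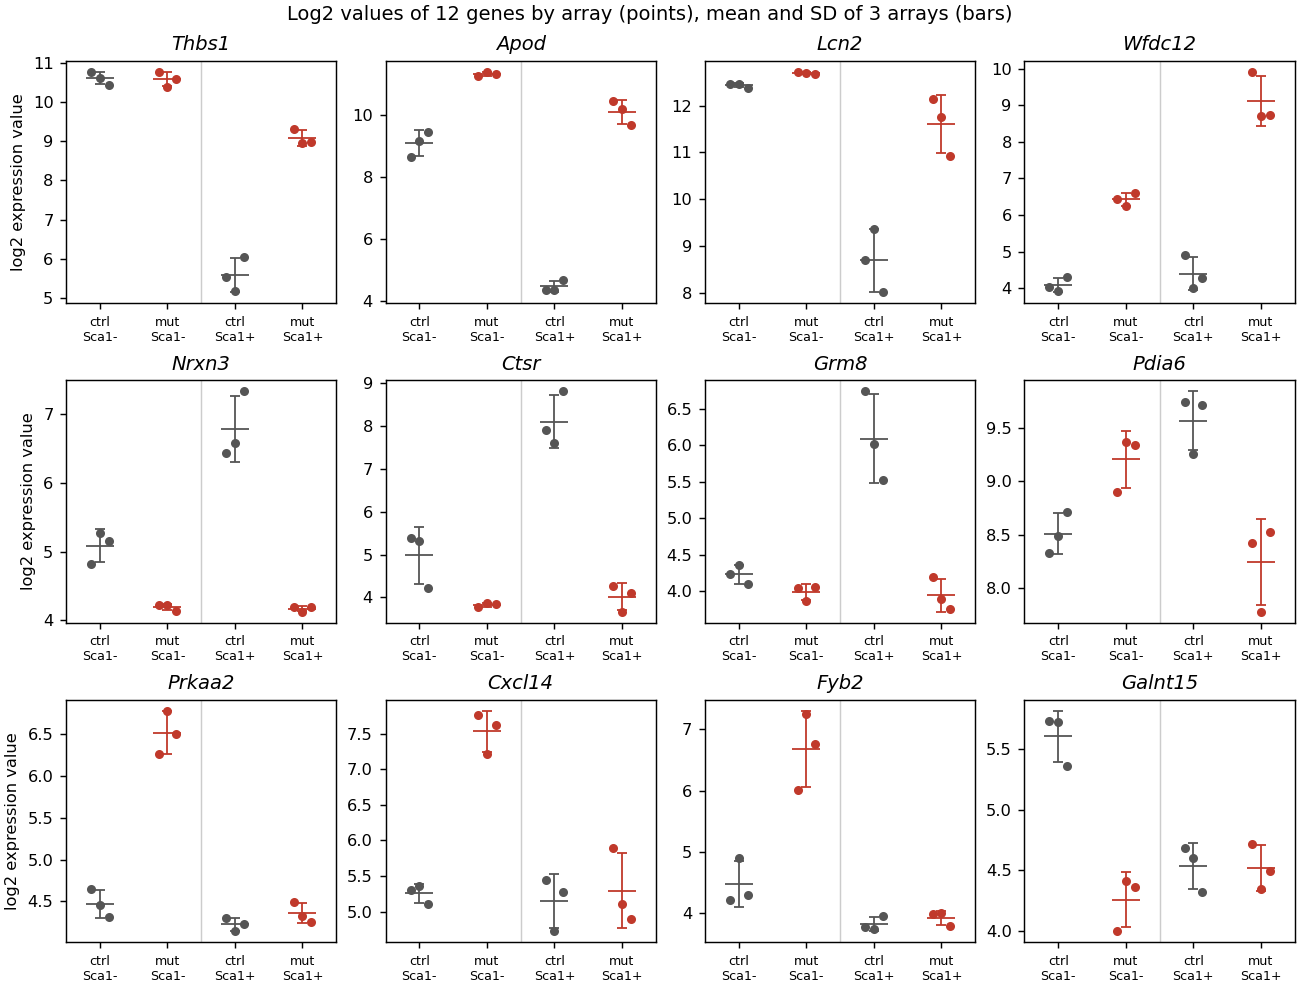
Log2 expression value (vertical axis) of 12 of the 32 genes in the 12 luminal arrays, by genotype (ctrl, mut) and gate (Sca1-, Sca1+); points are arrays, bars the mean and standard deviation of 3 arrays. In the top row the levels are higher in mutant Sca1-positive than in control Sca1-positive cells, in the middle row lower, and in the bottom row Prkaa2, Cxcl14 and Fyb2 are higher and Galnt15 is lower in mutant than in control Sca1-negative cells.

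The same test can be read as a change of the difference between the gates. Sca1-positive and Sca1-negative cells differed in 735 genes (3.69%) in control and in 729 genes (3.66%) in mutant mice, comparisons that share no array. In control cells 415 genes (2.08%) were higher and 320 (1.61%) lower in the Sca1-positive gate, and in mutant cells 361 (1.81%) and 368 (1.85%). Of the genes called, 321 passed in both, which is 43.7% of the control list and 44.0% of the mutant list, and 319 of them had the same direction. The exceptions were Pdia6 and Zbtb7b. Pdia6 was higher in the Sca1-positive gate in control (1.06) and lower there in mutant cells (-0.96), as was Zbtb7b (0.91 and -0.81). The control count was 458 without control Sca1-positive replicate 3, and the mutant count was 390, 463 and 428 without mutant Sca1-positive replicate 3, mutant Sca1-positive replicate 2 and mutant Sca1-negative replicate 1.

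Among the 32 genes, 11 differed between the gates in control only, 15 in mutant only and 6 in both. The difference of effects equals the gate difference in mutant minus that in control cells. These counts therefore follow in part from the values that called the genes and are a description. Of the 8 genes lower in mutant Sca1-positive cells, which all differed between the gates in control cells, Pdia6 alone passed in mutant cells, with the opposite sign. Ctsr differed by 3.13 in control and 0.19 in mutant cells, and Abcc8 by 2.54 and 0.50. The 8 genes higher in mutant Sca1-negative cells all differed between the gates in mutant cells, and Zbtb7b alone did in control cells, with the opposite sign. Fyb2 differed by -0.65 in control and -2.76 in mutant cells, and Wfdc3 by -0.41 and -2.74. Of the 13 genes higher in mutant Sca1-positive cells, 5 passed in control and 11 in mutant cells. Thbs1 and Lcn2 kept their direction with a smaller difference (-5.03 and -1.50, -3.75 and -1.09), while Mall went from -0.21 to 2.58 and Crabp1 from -0.23 to 2.54.

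**Figure D4:**
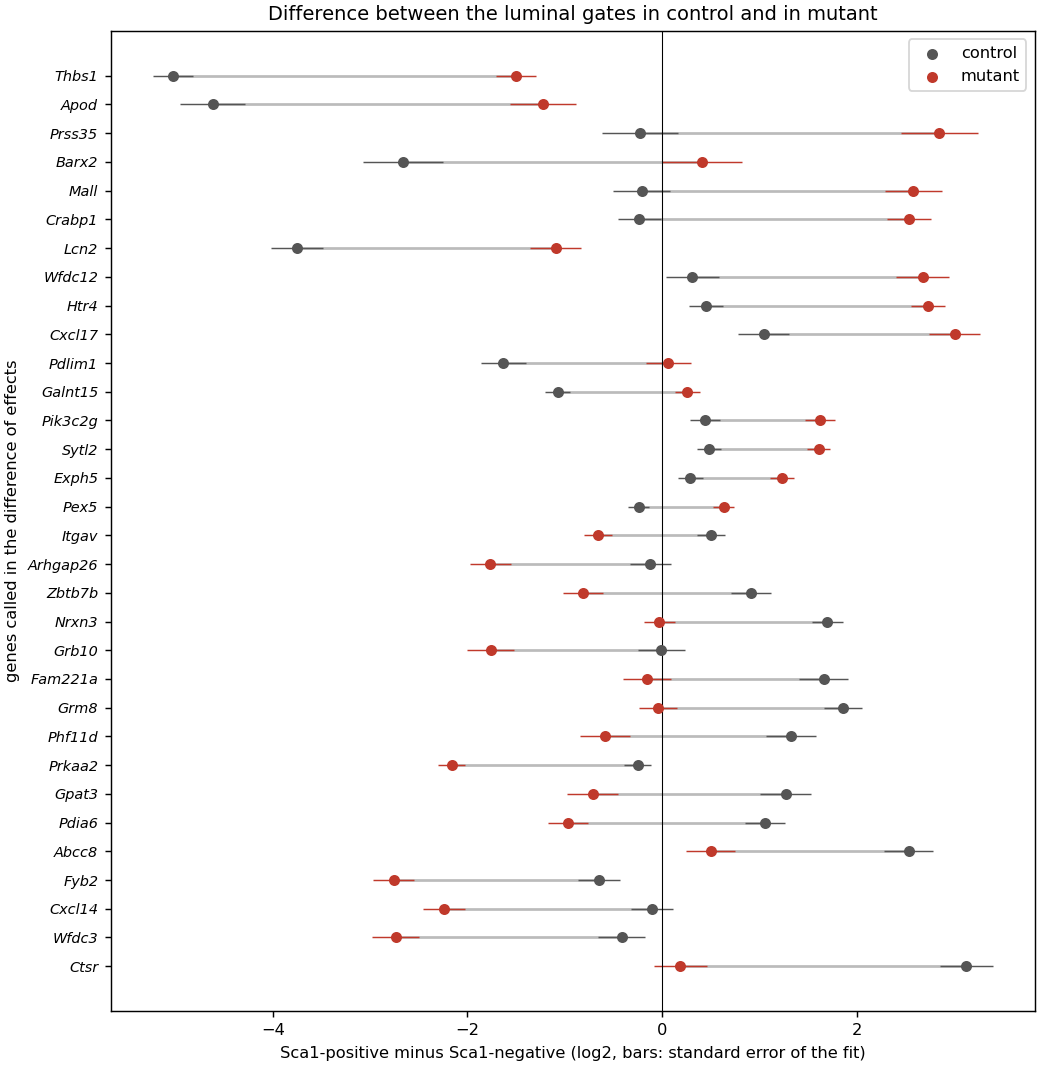
Sca1-positive minus Sca1-negative level (log2, horizontal axis) in control (grey) and mutant cells (red) for the 32 called genes, ordered by the difference of effects; bars are standard errors of the fit over 3 arrays per group. The grey line that joins each pair is the difference of effects, for example from -5.03 to -1.50 in Thbs1 and from 3.13 to 0.19 in Ctsr.

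Most genes that responded in either gate were not called in the difference. The effects in the gates, which share no array, passed together in 25 genes, all in the same direction. These are 17.2% of the Sca1-negative and 16.1% of the Sca1-positive list. Of the 120 genes that passed in Sca1-negative cells only, 11 passed in the difference of effects, and of the 130 in Sca1-positive cells only, 18 did. Among the 120, 97 had the same sign in the other gate, as did 98 of the 130. Passing in a single gate is therefore not by itself a difference between the gates. Across the 19937 genes the effects had a Pearson correlation of 0.337, a description over genes that share arrays and are not independent.

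The genes shared by the gates include secreted factors and a hormone-sensing marker. Lgals1, which encodes the sugar-binding protein galectin 1, rose by 2.68 in Sca1-positive and 2.72 in Sca1-negative cells (difference -0.03, adjusted p = 0.996). Il17b, a cytokine gene, rose by 3.59 and 3.10 (difference 0.49, adjusted p = 0.801). Prom1, which marks the surface of hormone-sensing cells, fell in both gates, with effects of -2.32 and -2.17 (difference -0.14, 95% interval -1.16 to 0.87). Tph1, an enzyme of serotonin synthesis, fell with effects of -5.06 and -3.12 and a difference of -1.94 whose interval reached from -3.88 to -0.01 (adjusted p = 0.70). Csn2, the milk protein beta-casein, read 5.04, 5.17 and 6.58 against 12.48, 11.51 and 10.96 in Sca1-positive arrays, and 8.80, 8.96 and 9.46 against 12.65, 12.46 and 12.40 in Sca1-negative arrays. It rose by 6.05 and 3.44, and the difference of 2.62 (interval 0.79 to 4.45) did not pass (adjusted p = 0.452).

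Groups of genes were then described by their counts and medians beside those of all genes, whose median difference of effects was 0.03 and whose median effects were near 0 in Sca1-positive and -0.04 in Sca1-negative cells. Over 33 lists with 577 distinct measured genes, 6 passed in the difference of effects: Lcn2, Wfdc12, Cxcl14, Cxcl17, Thbs1 and Pdia6. Of all genes, 0.161% passed in the difference, 0.401% rose and 0.376% fell in Sca1-positive cells, and 0.557% rose and 0.171% fell in Sca1-negative cells, which is the background of each count of calls that follows. The background of each count at an unadjusted p under 0.05 is 7.13% of all genes in the difference. It is 7.73% in Sca1-positive and 11.1% in Sca1-negative cells. Of 21 acute-phase and antimicrobial genes, 4 rose in Sca1-positive cells and 5 in Sca1-negative cells, with median effects of 0.75 and 1.02. Wfdc12 is in both counts. The other calls were each in a single gate: Lcn2, Lbp, which encodes a carrier of bacterial lipopolysaccharide (3.29), and the copper carrier gene Cp (1.57) in Sca1-positive cells. Cp did not pass without mutant Sca1-positive replicate 1 (1.33, adjusted p = 0.0852). In Sca1-negative cells they were the serum amyloid genes Saa1 (6.35) and Saa2 (4.91), near-identical copies, the protease inhibitor gene Slpi (1.43) and Pglyrp1 (2.57), whose product binds bacterial cell walls. Saa1 also read 9.32, 8.32 and 3.96 in mutant and 3.46 to 3.87 in control Sca1-positive arrays. Its effect there was 3.57 (adjusted p = 0.0996), and 2.51 without replicate 1. Of the 7 genes called in a single gate, only Lcn2 passed in the difference of effects. Lbp (2.27, adjusted p = 0.373), Saa1 (-2.78, adjusted p = 0.695) and Pglyrp1 (-2.21, adjusted p = 0.238) did not.

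Of 31 basal and myoepithelial genes, 7 rose in Sca1-negative cells and 0 in Sca1-positive cells, with median effects of 0.62 and 0.29, and 0 passed in the difference of effects by limma. At an unadjusted p under 0.05 there were 7 in Sca1-positive cells and 7 in the difference, against 7.73% and 7.13% of all genes. The 7 that rose in Sca1-negative cells were Krt5 (3.29), Krt14 (2.46), Krt17 (2.15), the matrix protein gene Sparc (3.64), the ERBB ligand gene Nrg1 (2.75), Fblim1 (1.98), which encodes a filamin-binding adhesion protein, and the intermediate filament gene Vim (1.61). Krt5 read 8.63, 7.92 and 8.94 in mutant Sca1-negative arrays and 4.93 to 5.51 in the 6 control arrays. In mutant Sca1-positive cells it was raised mainly in replicate 1 (7.98, 5.18 and 6.28), and the difference of effects was -2.12 (interval -3.40 to -0.84, adjusted p = 0.305). Without that array the list's median effect in Sca1-positive cells was 0.14 and 4 of the list passed in the difference: Krt5 (-2.88, adjusted p = 0.000896), Krt14 (-2.28, adjusted p = 0.00136), Sparc (-3.20, adjusted p = 8.52e-05) and Vim (-1.47, adjusted p = 0.00931).

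Without that array, 29 genes passed that had not passed with it. Sparc read 8.67, 8.36 and 9.19 in mutant Sca1-negative arrays, 8.28, 5.46 and 5.22 in mutant Sca1-positive arrays and 4.62 to 5.68 in control arrays. Igfbp3, which encodes a carrier of insulin-like growth factors, read 8.60, 8.48 and 9.02 in mutant Sca1-negative arrays, and 8.89, 4.36 and 4.81 in mutant Sca1-positive arrays (difference -4.26 without replicate 1, adjusted p = 2.79e-05). Nid1, the gene of the basement membrane protein nidogen, went the other way, reading 5.34, 8.19 and 7.53 in mutant Sca1-positive arrays and 4.40 to 5.10 in mutant Sca1-negative arrays (difference 3.19 without replicate 1, adjusted p = 0.000165). Mmp10, which encodes a matrix-cleaving protease, read 4.89, 7.03 and 7.68 in mutant Sca1-positive arrays and at most 5.31 in the other 9 arrays (difference 2.66, adjusted p = 0.000519). In each of these genes replicate 1 lay with the Sca1-negative arrays of the mutant and away from its own group. This follows in part from the choice of genes that passed only without replicate 1, and is a description. Igfbp3, Nid1 and Mmp10 were chosen after their values were seen.

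Lineage lists were described in the same way. Of 22 luminal progenitor and alveolar genes, 2 rose and 1 fell in Sca1-positive cells and 0 were called by limma in Sca1-negative cells (6 at an unadjusted p under 0.05), with median effects of 0.79 and 0.15. Aldh1a3, a retinaldehyde dehydrogenase of progenitors, read 4.83 to 5.19 in control and 8.12, 7.52 and 7.25 in mutant Sca1-positive arrays (2.57, adjusted p = 0.000125), and its difference of effects was 1.41 (adjusted p = 0.402). The iron carrier gene Trf rose by 2.56 and Bmp3, of the bone morphogenetic protein family, fell by 1.46 in Sca1-positive cells. Elf5 did not pass in either gate (1.63 and 1.12), and its difference was 0.51 with replicate 1 and -0.58 without it. Without replicate 1 the list's median effect in Sca1-positive cells was 0.59, and Trf did not pass there (2.17, adjusted p = 0.164).

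Of 22 hormone-sensing genes, 3 fell in Sca1-positive cells (Tph1, Prom1 and the Wnt ligand gene Wnt5a, -1.44) and 4 in Sca1-negative cells (Prom1, Tph1, the growth factor gene Ptn, -1.55, and the stanniocalcin gene Stc2, -2.57). The median effects were -0.13 and -0.57. Without mutant Sca1-positive replicate 1 the median in Sca1-positive cells was -0.05, and Wnt5a did not pass (-1.29, adjusted p = 0.102). Esr1 (-0.12 and -0.66) and Pgr (-0.88 and -2.03) did not pass in either gate. Of 22 milk and secretory genes, Csn2 and Csn1s1 (5.62) rose in Sca1-positive cells, and Csn2, Wap (5.90) and the amino acid oxidase gene Lao1 (2.62) in Sca1-negative cells, with median effects of 0.98 and 0.66. Without mutant Sca1-positive replicate 1 the median in Sca1-positive cells was 0.56, and Csn2 and Csn1s1 still passed. Csn1s1, the alpha-casein gene, read 4.18, 4.83 and 5.89 against 11.55, 10.76 and 9.44 in Sca1-positive arrays and 9.49 to 10.55 against 11.57 to 11.91 in Sca1-negative arrays. Its difference of effects was 3.80 (interval 1.85 to 5.75, adjusted p = 0.176). Wap, the whey acidic protein gene, read 10.96, 8.83 and 5.64 in mutant Sca1-positive arrays, a spread wider than that of any other group, and its difference of -1.83 had an interval of -4.78 to 1.12.

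**Figure D5:**
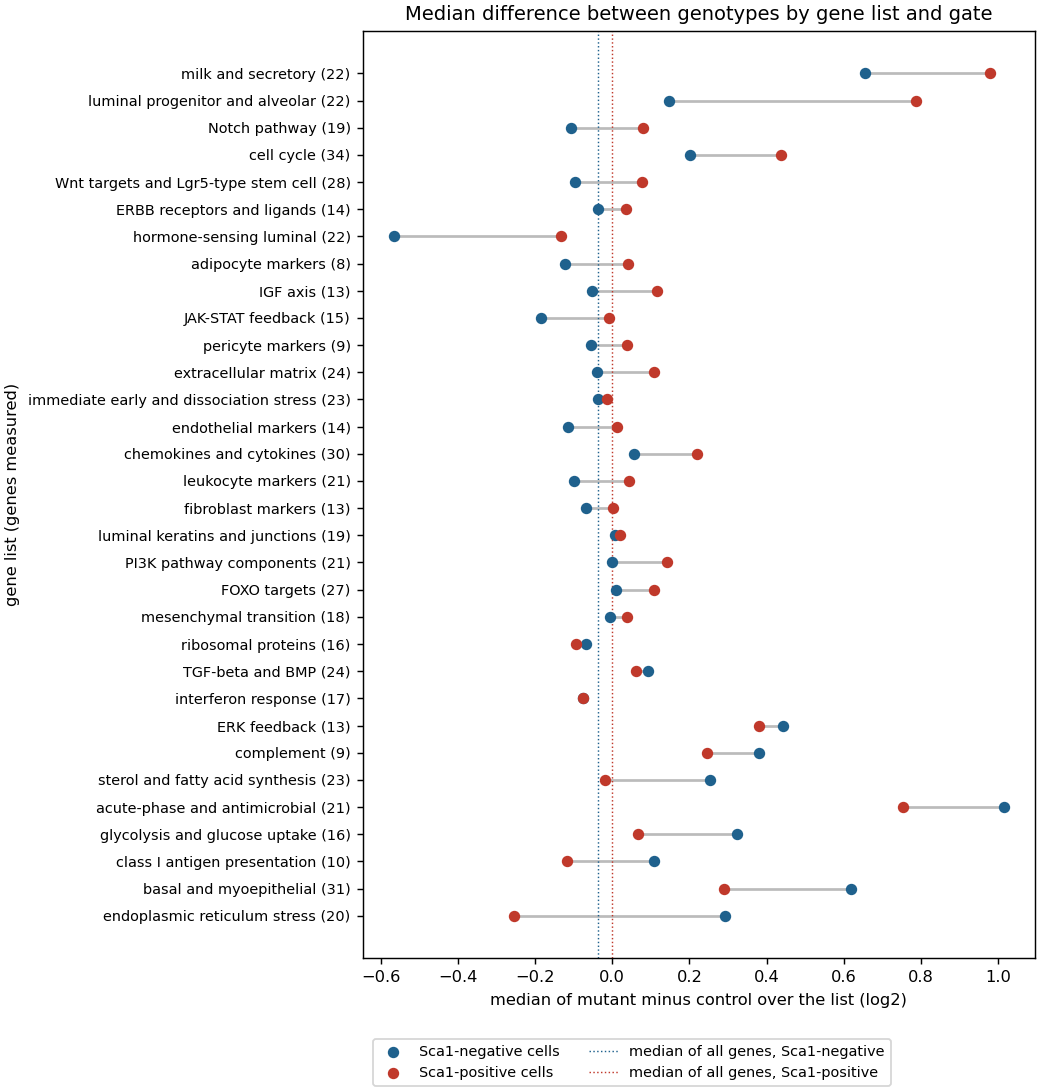
Median mutant minus control difference (log2, horizontal axis) over the measured genes of each list, in Sca1-negative (blue) and Sca1-positive cells (red), for lists with at least 8 measured genes (number in parentheses); dotted lines are the medians of all genes. The milk and progenitor lists have the highest Sca1-positive medians (0.98 and 0.79; 0.56 and 0.59 without mutant Sca1-positive replicate 1, below the 0.72 of the acute-phase list), and the endoplasmic reticulum list has medians on opposite sides of 0 (-0.25 and 0.29).

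Genes of protein folding in the endoplasmic reticulum had median effects of opposite sign in the gates, -0.25 in Sca1-positive and 0.29 in Sca1-negative cells. Of 20 such genes 18 (90%) had a difference of effects below 0, as did 44.3% of all genes tested, and the list's median was -0.50, the lowest of the 33 lists. It lay between -0.58 and -0.38 under all settings run. Pdia6 alone passed, and 6 members had an unadjusted p under 0.05 in the difference, as did 7.13% of all genes. Pdia4 (-1.26), Pdia3 (-0.63) and Hsp90b1 (-0.54), other folding enzymes and a chaperone, had adjusted p of 0.457, 0.448 and 0.381. Xbp1, a transcription factor of the unfolded protein response, had effects of -0.35 and 0.71 (adjusted p of the difference 0.674), while the chaperone gene Hspa5 had -0.25 and -0.15. Stt3a, of the glycan transferase, and Srp68, of the signal recognition particle, both of protein entry to the same compartment and in no list, were among the genes that passed without mutant Sca1-positive replicate 1 (-1.22 and -1.78, chosen after their values were seen).

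Insulin-like growth factor genes had Igfbp5 (3.53) and Igfbp7 (2.01) higher in Sca1-positive cells and Igfbp3 (4.38) in Sca1-negative cells, of 13. Igfbp5, a growth factor carrier that alveolar cells make as milk secretion ends, read 5.89, 6.05 and 5.64 against 10.74, 8.99 and 8.46 in Sca1-positive arrays and 10.16 to 11.38 against 11.24 to 11.68 in Sca1-negative arrays. Its difference of effects of 2.90 missed the threshold (adjusted p = 0.0505) and passed without replicate 1 (2.23, adjusted p = 0.0138). In the matrix list of 24, Thbs1 and the metalloprotease inhibitor gene Timp3 (1.54) rose in Sca1-positive cells, Sparc in Sca1-negative cells, and the proteoglycan gene Dcn fell in both (-3.01 and -3.29). Without mutant Sca1-positive replicate 1, Igfbp7 (1.64, adjusted p = 0.218), Timp3 (1.29, adjusted p = 0.107) and Dcn (-3.00, adjusted p = 0.139) did not pass in Sca1-positive cells. Of 30 chemokine and cytokine genes, Il17b rose in both gates, the alarmin gene Il33 (2.86) in Sca1-positive cells and Cxcl14 in Sca1-negative cells, where Cxcl17 fell. The difference for Il33 was 2.29 (adjusted p = 0.20).

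The kinase pathway itself and its known outputs were described in the same way. None of 21 components of the phosphoinositide 3-kinase pathway and none of 27 FOXO targets passed in either effect or in the difference by limma. Of all genes, 0.777% and 0.727% passed in the effects and 0.161% in the difference, so no call in lists this short is near that share. At an unadjusted p under 0.05 these lists had 3 and 4 genes in Sca1-positive cells, 2 and 5 in Sca1-negative cells, and 0 and 1 in the difference. Their median effects were 0.14 and 0.11 in Sca1-positive and near 0 and 0.01 in Sca1-negative cells. Of 16 glycolysis genes, Ldha (1.30) and Aldoa (0.76) rose in Sca1-negative cells and 0 were called by limma in Sca1-positive cells (2 at an unadjusted p under 0.05), with medians of 0.32 and 0.07. The differences for Ldha (-1.16, adjusted p = 0.431) and Aldoa (-0.73, adjusted p = 0.394) did not pass. In the sterol and fatty acid list of 23, Msmo1, a sterol-making oxygenase, rose in Sca1-negative cells (2.32), with a difference of -2.57 (adjusted p = 0.234). Of 34 cell cycle genes E2f1 rose in Sca1-positive cells (0.62), and the medians were 0.44 and 0.20.

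Of 14 ERBB receptors and ligands, Nrg1 rose in Sca1-negative cells, where it read 4.77 to 5.27 in control and 7.08 to 8.72 in mutant arrays; its difference was -2.08 (adjusted p = 0.257). In the transforming growth factor and bone morphogenetic protein list of 24, the inhibitory factors Id1 (1.08) and Id2 (1.47) rose in Sca1-negative cells and Bmp3 fell in Sca1-positive cells. Of 17 interferon response genes, Usp18 (-1.63) and Bst2 (-1.64) fell in Sca1-positive cells. Of 23 immediate early genes, which also rise when tissue is dissociated, Nr4a1 rose in both gates (1.46 and 1.06), and Jun (-0.59) and Klf2 (-0.77) fell in Sca1-positive cells. None of the 28 Wnt target, 19 Notch, 13 ERK feedback, 15 JAK-STAT feedback, 18 mesenchymal, 9 complement, 10 antigen presentation, 19 luminal keratin and junction or 16 ribosomal genes passed in the difference of effects by limma. Unadjusted p-values under 0.05 there numbered 3, 4, 1, 2, 1, 0, 0, 0 and 0, against 7.13% of all genes.

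Markers of other cell types had no call in the difference of effects by limma, where 0 of the leukocyte and 1 of the fibroblast markers had an unadjusted p under 0.05. Of 21 leukocyte markers 3 lay above the dim level in each luminal group, and the summed log2 level of the list was 88.9 to 90.0 in control and 90.6 to 90.7 in mutant Sca1-positive arrays, and 91.7 to 93.1 and 91.8 to 93.5 in Sca1-negative arrays. The phagocyte gene Cd68 rose in Sca1-negative cells (1.52). Of 13 fibroblast markers Dcn alone was called in an effect, in Sca1-positive cells only with mutant Sca1-positive replicate 1. The defining genes Col1a1, Col1a2 and Pdgfra read 3.88 to 5.31 in all 12 arrays, while Dcn read 6.13 to 11.78. Endothelial (14 genes), pericyte (9), adipocyte (8) and erythroid markers (2) had no call in either effect by limma, and 1, 2, 0 and 0 of them had an unadjusted p under 0.05 in Sca1-positive cells and 1, 3, 0 and 0 in Sca1-negative cells. Their summed levels over the 12 arrays were 59.0 to 63.4, 39.6 to 41.5, 33.5 to 36.5 and 8.34 to 8.95. The endothelial gene Pecam1 read 6.25 in control Sca1-positive replicate 3 and at most 4.73 in the other 11 arrays.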

How the data were processed

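The series holds 24 arrays (Affymetrix Mouse Gene 1.0 ST) in 8 groups of 3, of which the 12 luminal ones are compared here. Values were taken on the log2 scale as deposited, by probe set. The submitters' processing notes name the software affy; its version, the background correction and the normalization are not given in the sources used here. Array medians of the luminal arrays lay between 4.41 and 4.51. The platform annotation paired 21640 of the 34760 probe sets with a single symbol, 1321 with several and 11799 with none. Through Entrez identifiers 21553 were found in RefSeq (GRCm38.p6), and 0 names changed. Where a gene had more than 1 probe set (954 genes), the brightest on average was used, which left 19937 genes.

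All 24 arrays entered 1 limma model of group means (limma 3.58.1, R 4.3.3), which left 16 residual degrees of freedom. Tests were two-sided, with Benjamini-Hochberg adjustment over all genes within a comparison and a threshold of 0.05. Intervals are 95% intervals of the fit, errors of differences are its standard errors. The p-values measure the spread between sorted pools, and the number of arrays limits the precision. On simulated data the fit recovered 40, 78, 90 and 98% of genes whose effects differed 2-, 4-, 8- and 16-fold, with 2 false calls among 155. The simulated noise was normal and independent between arrays, with the same spread in all groups for a gene. It held no array that stood apart and no deviation shared by a replicate number, so these rates may not hold for the real arrays.

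Named genes were up to 15 called genes each way of smallest p without predicted genes, receptors of smell and small RNAs, up to 4 members of each list (called ones first, otherwise the member of smallest p), and Pik3ca, Lgr5, Cd24a, Ptprc, Krt5, Krt14, Krt8, Krt18, Elf5, Esr1, Pgr, Csn2, Wap, Saa1 and Prom1. The comparison, the 33 lists and the rule were chosen with earlier results of these data known. Alternatives were the arrays in the fit, normalization, a filter on dim genes, averaged probe sets, array weights, an intensity trend, replicate blocks and leaving out each luminal array. No array was left out of the reported fit.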

Additional observations from a re-analysis of the deposited data

Results flagged for a closer look

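The 32 genes below had mutant effects that differed between the luminal gates by the test of the difference itself, given as Sca1-positive minus Sca1-negative on the log2 scale. Among genes of secretion, matrix and defence these were Thbs1 (3.53), Apod (3.39), Lcn2 (2.66), Wfdc12 (2.37), Prss35 (3.08), Sytl2 (1.13), Exph5 (0.94), Cxcl17 (1.96), Wfdc3 (-2.32) and Cxcl14 (-2.14). Receptors, channels and membrane proteins were Htr4 (2.28), Mall (2.80), Nrxn3 (-1.73), Grm8 (-1.90), Abcc8 (-2.04) and Itgav (-1.17). Signalling proteins and transcription factors were Prkaa2 (-1.91), Grb10 (-1.75), Fyb2 (-2.11), Arhgap26 (-1.65), Pik3c2g (1.18), Pdlim1 (1.70), Zbtb7b (-1.72) and Barx2 (3.07). Enzymes, carriers and others were Crabp1 (2.77), Galnt15 (1.33), Pex5 (0.88), Ctsr (-2.94), Pdia6 (-2.02), Gpat3 (-1.99), Phf11d (-1.90) and Fam221a (-1.82).

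The 13120 probe sets without a single symbol, outside the genes tested, had a fit of their own. Of these, 5 passed in the difference of effects, 19 in the effect in Sca1-positive cells and 14 in that in Sca1-negative cells, and 895 had an unadjusted p under 0.05 in the difference.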

How the results depend on the processing

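The difference of effects kept its sign in all 32 genes under the 22 alternatives run, as far as a gene was tested there, and Thbs1, Apod and Prkaa2 passed under every one. In a fit of the 4 luminal groups alone the counts were 5 for the difference of effects, 79 and 74 for the effects in Sca1-positive and Sca1-negative cells, 1 for list members and 3 of the called genes. Array weights gave 52. Of the called genes, 21 remained without the control basal GFP-positive arrays and 21 of 22 tested with dim genes left out. Quantile normalization gave 32, median centring 30, averaged probe sets 31 and an intensity trend 35, and the median of all genes moved by less than 0.1 in each.

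With each luminal array left out in turn, the counts ran from 23 to 60 for the difference of effects, 103 to 183 and 110 to 178 for the effects in Sca1-positive and Sca1-negative cells, 458 to 741 and 390 to 749 for the gate difference in control and mutant cells, 5 to 12 for list members and 20 to 31 for the called genes. Counts more than 1.5 times from the reported ones were 60 and 12 without mutant Sca1-positive replicate 1, 103 without control Sca1-positive replicate 3, the gate differences named in the report, and 20 or 21 of the called genes in 5 fits (without control Sca1-positive replicate 3, control Sca1-negative replicate 1, mutant Sca1-positive replicate 3, or mutant Sca1-negative replicate 2 or 3). The signs of uncalled differences turned for Cd24a (0.015 with quantile normalization), Krt8 (-0.035) and Krt18 (-0.031) with median centring, and on leaving out 1 array for Prom1 (-0.60 to 0.21), Elf5 (-0.58 to 1.38) and Krt8 (-0.016 to 0.098). The causes were not tested.

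With the replicate number as a block, 35 genes passed in the difference of effects, 30 of them among the 32 (all but Cxcl17 and Fam221a), and with genotype and number together as a block 32 passed, 24 of them among the 32 (not Cxcl17, Fam221a, Exph5, Gpat3, Pdlim1, Pex5, Phf11d and Zbtb7b); the effects within a gate could not be fitted then. Arrays of the same number and genotype deviated from their group means together with correlations of 0.022 to 0.185 (median 0.082, 6 pairs). Those of the same genotype and different number had -0.139 to 0.054 (median -0.071, 12 pairs). Between genotypes the median was 0.064 for the same number and -0.027 for different numbers. Arrays of a number thus shared a small part of their deviations, which the reported fit did not model. The source of this was not tested. Dim readings limit the size of many differences: 4 of the called genes had a mean over the luminal arrays below 4.66, and 10 had a mean over all 24 arrays below it. Others, such as Htr4 and Wfdc12, were dim in some luminal groups and well above 4.66 in others.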
